A study of Drosophila melanogaster with 3 samples.

Results

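Mitochondrial ribosomal protein genes are the nuclear genes that encode the proteins of the ribosome inside mitochondria. The members were chosen by symbol: every protein-coding gene of Drosophila melanogaster whose symbol begins with mRpL (large subunit) or mRpS (small subunit). This gave 73 of 13945 protein-coding genes, 47 of the large and 26 of the small subunit by symbol. The subunit was read from the symbol alone here and throughout, and was not checked against the place of each protein in the ribosome. The family was singled out with earlier results of these data known, and the position, rank and signal of peaks belong to the readout that drew attention to it, so those values are given as a description and no test was made.

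Chromatin immunoprecipitation and sequencing (ChIP-seq) had been used to map the Pax-family transcription factor shaven (sv), and the resulting peak lists were analysed. The animals were whole larvae of mixed sex in the wandering phase of the third instar, from a transgenic line with a stable insertion that expresses sv-RD fused at its C-terminus to GFP. The labels name no change to the native sv gene. There was 1 group of 3 biological replicates, without a second genotype or stage. According to the sample descriptions GFP was the antibody's target, although another label field gives sv. Because chromatin came from all tissues together, the share of cells that carry a peak and its strength per cell cannot be told apart.

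Mitochondrial ribosomes translate the few proteins encoded by mitochondrial DNA, which are core subunits of the respiratory chain and the ATP synthase. Their ribosomal RNAs come from mitochondrial DNA, but their proteins are made in the cytosol and imported, so nuclear and mitochondrial genes must be expressed together. Some of these proteins have bacterial counterparts, such as those around the peptide exit tunnel, and others occur only in mitochondria.

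Promoter peaks were found at 28 of the 73 genes. A peak was counted when its summit, the position of its highest signal, was at most 500 bp from a transcription start in the annotation. It also had to belong to the optimal set of 3823 peaks. The authors made this set with IDR (the irreproducible discovery rate), a filter for reproducibility between replicates. Its peaks were identical to the 3823 strongest in the list from the pooled reads, so a single peak in it need not recur in every replicate. The 28 genes are 38.4% of the family, and 2714 of all protein-coding genes (19.5%) had such a summit. The gene's own start was the nearest protein-coding start to the summit at 14 of the 28 (50%), against 1909 of the 2714 (70.3%). With summits anywhere in the gene body or the 2 kb upstream counted, 34 members (46.6%) had one, against 3751 of all protein-coding genes (26.9%). No member had more than 1 promoter summit.

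Each replicate gave a similar share of the family. Among the 3823 strongest peaks of each replicate's own list, promoter summits were found at 30 members in replicate 1 (41.1%), 29 in replicate 2 (39.7%) and 29 in replicate 3 (39.7%), with a mean of 40.2% ± 0.791 (SD, n = 3). The same lists gave 18.2%, 19.2% and 19.9% of all protein-coding genes (mean 19.1% ± 0.848). Members share their promoter region with a second gene (a divergent pair, defined below) more often than all genes do. Among divergent genes alone the replicate means were 48.3% ± 1.72 in members and 34.4% ± 1.13 in all genes. These SDs describe the spread between replicates and not between genes. The optimal set was made from the reads of all 3 replicates, so the replicate lists are not independent of it.

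**Figure D1:**
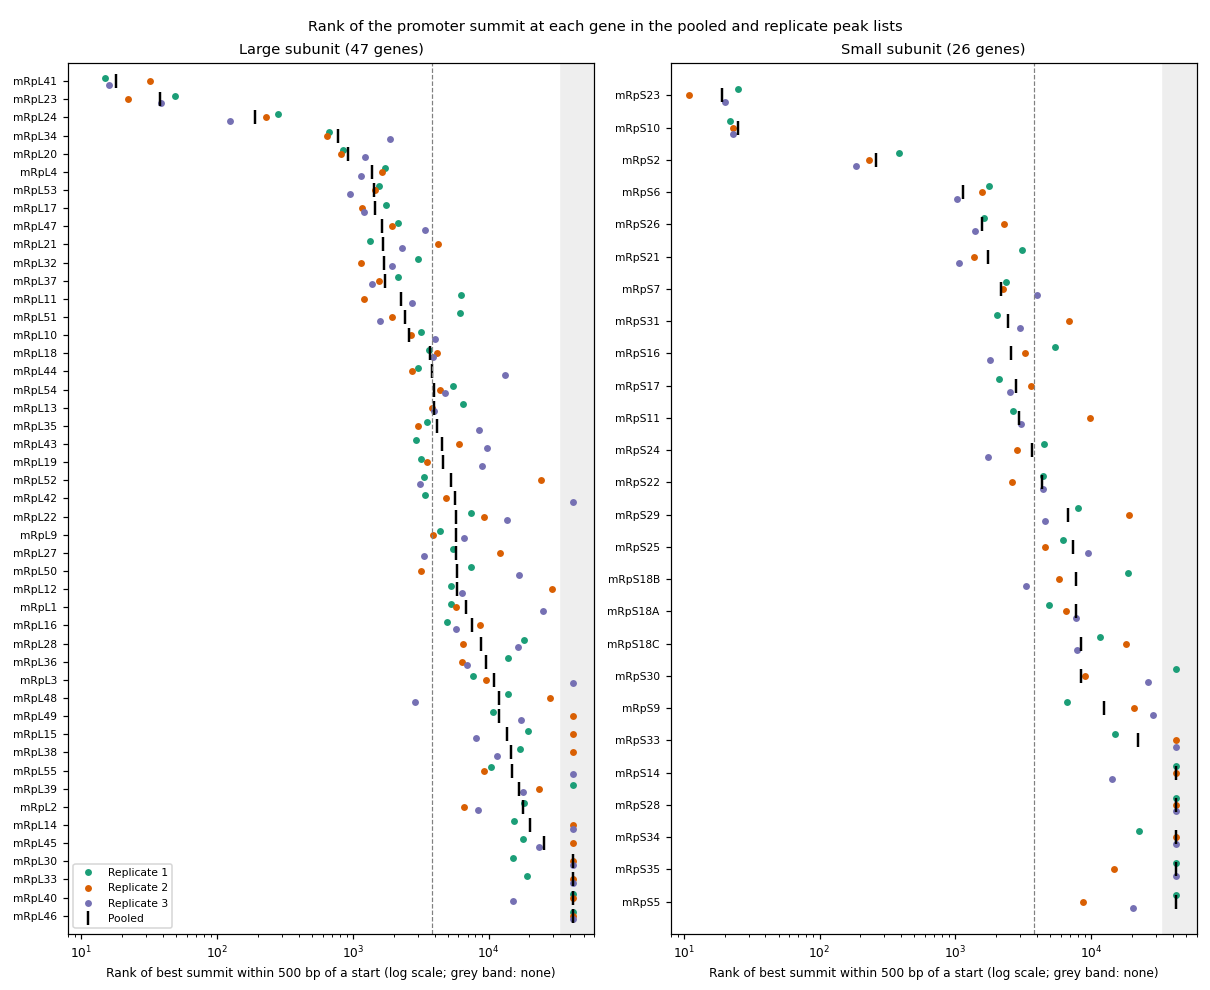
Each row is 1 gene, with the large subunit on the left and the small subunit on the right; the horizontal axis (log scale) gives the rank of its best promoter summit in the pooled list (black bar) and in each replicate list (coloured points), where rank 1 is the strongest peak. The dashed line is the end of the optimal set at rank 3823, the grey band holds genes without a promoter summit in that list, and 6 genes stand apart at pooled ranks 18 to 262.

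The strongest summits lay at 6 genes, 3 of each subunit. Peaks were ranked by the deposited signal, which was compared only within a list. The signal of the whole optimal set ran from 72.6 to 2018 with a median of 114. After these 6 genes, at ranks 18 to 262, the next member stood at rank 784. Of the 28 summits, 4 were at rank 100 or better (14.3%), against 107 of the 2714 genes with a promoter summit (3.94%), and 6 were at rank 300 or better (21.4%), against 291 (10.7%). These limits were chosen after the ranks were seen.

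mRpL41 (FBgn0034001), a mitochondria-specific protein of the large subunit, had the highest-ranked summit of the family, at rank 18 with a pooled signal of 797. It lay 132 bp upstream of the start, and its signal in replicates 1, 2 and 3 was 359, 191 and 251, at ranks 15, 32 and 16. In the small subunit, mRpS23 (FBgn0260407), also mitochondria-specific, had rank 19 with a signal of 793. The replicate ranks of mRpS23 were 25, 11 and 20. Its summit lay 379 bp upstream of its own start and 113 bp from that of CenG1A, which encodes an Arf GTPase-activating protein and runs the other way. The summit of mRpS10 (FBgn0038307), a protein of the head of the small subunit, was at rank 25 with a signal of 759 and at ranks 22, 23 and 23 in the replicates. mRpL23 (FBgn0035335), which encodes a protein at the rim of the peptide exit tunnel, had rank 38 with a signal of 657 (replicate ranks 49, 22 and 39). These 4 genes were in the first 50 peaks of every list.

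mRpL24 and mRpS2 followed at lower signal. mRpL24 (FBgn0031651), another protein near the exit tunnel, had rank 191 and a signal of 350, with replicate ranks of 283, 229 and 124. mRpS2 (FBgn0031639), a small subunit protein with a bacterial counterpart, had rank 262 and a signal of 308, with replicate ranks of 385, 231 and 187. Both stayed in the strongest 400 peaks of each replicate.

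At 5 of these 6 genes the summit lay between the member's start and the start of a partner gene running the other way, and mRpL23 was the exception. The 3 of these stretches that are no longer than 300 bases are shown, to place the summit between the starts. They come from the NCBI Release 6 assembly (dm6 coordinates), run 5′ to 3′ along the member's strand and end 1 base before its start. Capitals mark the 21 bases centred on the summit.
mRpS10 and Art3, chr3R:15229409-15229664, plus strand: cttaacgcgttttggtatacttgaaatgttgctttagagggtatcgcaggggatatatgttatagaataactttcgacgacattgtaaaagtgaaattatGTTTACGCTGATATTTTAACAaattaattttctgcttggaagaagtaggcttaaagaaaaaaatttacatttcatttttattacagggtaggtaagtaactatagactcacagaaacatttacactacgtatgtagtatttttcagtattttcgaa
mRpL24 and betaggt-I, chr2L:4945362-4945578, minus strand: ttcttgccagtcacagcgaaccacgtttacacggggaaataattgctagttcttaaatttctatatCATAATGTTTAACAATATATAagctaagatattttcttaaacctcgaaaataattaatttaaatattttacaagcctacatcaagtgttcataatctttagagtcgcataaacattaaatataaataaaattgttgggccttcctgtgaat
mRpS2 and Mon1, chr2L:4850420-4850640, minus strand: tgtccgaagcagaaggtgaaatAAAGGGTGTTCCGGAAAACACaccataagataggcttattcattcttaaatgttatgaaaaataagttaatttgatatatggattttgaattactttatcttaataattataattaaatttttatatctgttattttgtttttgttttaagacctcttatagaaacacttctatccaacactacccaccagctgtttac

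In the 3 stretches shown the marked summit lies closer to the partner's start than to the member's, as it did at mRpS23. At mRpL41 the order was the opposite, with the summit 132 bp from its own start and 630 bp from that of CG8079. The distance to the member was 146 bp at mRpS10, 141 bp at mRpL24 and 189 bp at mRpS2. The distance to the partner was 111 bp for Art3, an arginine methyltransferase gene, 77 bp for betaggt-I, which encodes a subunit of a protein prenyltransferase, and 33 bp for Mon1, known for its role in endosome maturation. The stretches are rich in A and T, with a GC content of 30.1%, 28.6% and 28.1%. Windows of 101 bases at the 28 member summits had a median GC content of 31.2%, against 35.6% at the 1871 best-ranked promoter summits of all protein-coding genes.

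Most mitochondrial ribosomal protein genes share their promoter region with a second gene, and nearly all promoter summits were at such genes. A partner was counted when another protein-coding gene on the opposite strand starts within 1000 bp, head to head (a divergent pair). By this rule 58 of 73 members (79.5%) had a partner, against 5141 of 13945 protein-coding genes (36.9%). The share was 59.8% for 92 cytosolic ribosomal protein genes and 51.2% for 84 genes of the respiratory chain and ATP synthase. Large subunit genes had a partner in 37 of 47 cases (78.7%) and small subunit genes in 21 of 26 (80.8%).

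Among divergent members 27 of 58 (46.6%) had a promoter summit, against 35.4% of all divergent protein-coding genes (1821 of 5141). Among members with a single promoter 1 of 15 (6.67%) had one, against 10.1% of all single-promoter genes (893 of 8804). The difference between divergent and single-promoter members was 39.9 percentage points in the optimal set and 34.9, 33.2 and 50 points in replicates 1, 2 and 3 (mean 39.4 ± 9.23, SD, n = 3). Without replicate 3, counting only optimal peaks found in both other replicates, it was 26.1 points. Counting only summits nearest to the member's own start, it was 15.7 points. The single-promoter member was mRpL10, a protein of the ribosomal stalk, with rank 2584 and a summit 39 bp upstream of its start. Partners were thus present at 27 of the 28 genes with a summit (96.4%) and at 31 of the 45 without (68.9%). Over all protein-coding genes the same shares were 67.1% and 29.6%.

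**Figure D2:**
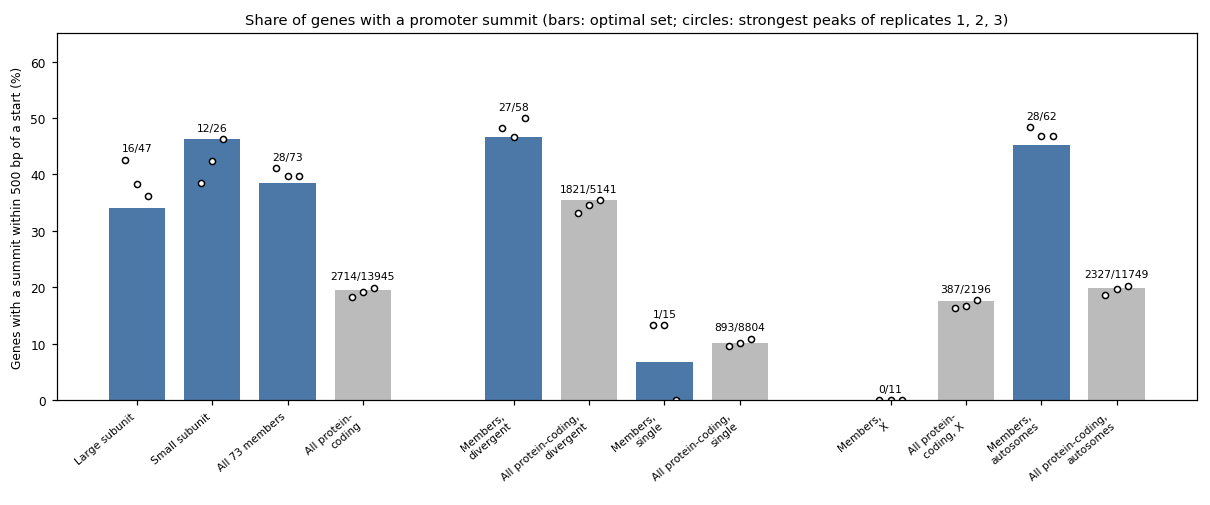
Bars give the percentage of genes with an optimal summit within 500 bp of a start, for the family (blue) and for all protein-coding genes (grey), with the counts above; circles are the shares in the strongest 3823 peaks of replicates 1, 2 and 3. Divergent members reached 46.6%, single-promoter members 6.67% and members on the X chromosome 0 of 11.

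In divergent pairs a summit within 500 bp of both starts counts for both genes. Of the 27 divergent members with a summit, 25 shared that summit with the partner. The other two were mRpL41, with its partner CG8079 762 bp away, and mRpL4, whose partner CG4440 starts 793 bp away. Of the 31 divergent members without a summit, 2 had a partner with one, mRpL2 (partner FoxK) and mRpL22 (partner if, an integrin gene). In 29 pairs neither gene had a summit.

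The median distance between paired starts was similar in the family and in all divergent genes, but the first quartile was shorter in members. The first quartile was 92 bp in members and 131 bp over all divergent genes. The median was 283 bp (20 to 793 bp) in members and 288 bp in all divergent genes. The latter include pairs with overlapping transcripts, counted as negative distances down to -969 bp. Summits were found at 6 of 18 members (33.3%) with starts less than 100 bp apart. The share was 30.9% of all genes in that class, which also holds the overlapping pairs, absent from the family. At 100 to 299 bp the counts were 9 of 15 (60%), against 42.6%, and at 300 to 1000 bp they were 12 of 25 (48%), against 32.3%.

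Summits lay mostly upstream of the member, between the paired starts. Their median distance from the member's start was -136 bp (minus is upstream), with a range of -379 to 46 bp, against a median of -128 bp for all genes with a promoter summit. Of the 28, 26 were upstream (92.9%, against 89.8%), and 11 were within 100 bp of the start (39.3%, against 35.6%). In 22 of 27 divergent members (81.5%) the summit fell between the starts, against 76.8% of all divergent genes with one. For 14 of 28 members (50%) the nearest protein-coding start to the summit was the member's own (tied with a neighbour's at mRpL53), and for 14 it was that of another gene. Over all genes with a promoter summit the member's own start was nearest in 70.3%.

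Of the 28 summits 22 lay between genes, 5 in a 5′ UTR, 1 in an intron and 0 in a coding exon. mRpL23 and mRpS11 were the 2 with the summit downstream of their own start and inside the 5′ UTR. The distance was 42 bp at mRpS11. At mRpL23 it was 46 bp from the nearest of its 3 annotated starts, an inner one. The summit of mRpL23 thus lay deeper than 46 bp into the gene. The summits counted for mRpL11, mRpL51 and mRpL18 lay in the 5′ UTR of the partner. These partners are HtrA2, a mitochondrial protease gene, Uba4, which acts in tRNA thiolation, and Taz, the tafazzin gene of cardiolipin remodelling. The summit of mRpL53 lay in an intron of AGO1, the Argonaute gene of the microRNA pathway.

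**Figure D3:**
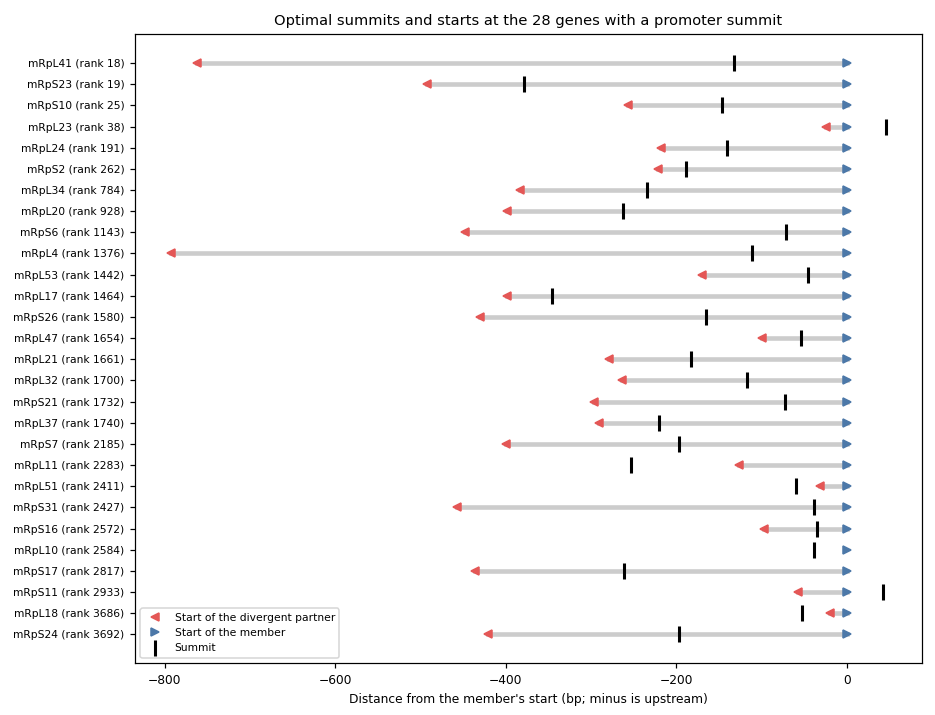
Each row is 1 of the 28 members with a promoter summit, ordered by rank; the horizontal axis is the distance in bp from the member's start (blue arrowhead), with the partner's start (red arrowhead) and the summit (black bar). Most bars fall on the grey line between the starts, and those of mRpL23 and mRpS11 lie to the right of the member's start. At mRpL23, which has 3 annotated starts, the summit is placed from an inner start and the partner from the outermost one.

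The large and small subunit shares differed in the optimal set, but the sign of the difference was not the same in every replicate. In the optimal set 16 of 47 large subunit genes (34%) and 12 of 26 small subunit genes (46.2%) had a promoter summit, a difference of -12.1 percentage points (large minus small). In the replicates the difference was 4.09, -4.01 and -9.98 points (mean -3.3 ± 7.06, SD, n = 3), so its sign in replicate 1 was opposite to that in the other two. In the stronger 1911 optimal peaks it was 2.45 points, and it was -6.96 points without replicate 1 and -5.24 without replicate 3. With summits in the gene body or 2 kb upstream counted, the shares were 44.7% for large and 50% for small subunit genes. The median rank of the summits was 1559 in the large and 1958 in the small subunit. Both subunits held members at both ends of the ranking.

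After mRpL41, mRpL23 and mRpL24, the large subunit genes with the highest ranks were mRpL34, mRpL20, mRpL4, mRpL53 and mRpL17. mRpL34, paired with the dystroglycan gene Dg, had rank 784 with a signal of 184 and replicate ranks of 668, 646 and 1872. mRpL20 had rank 928 and a signal of 169 (replicate ranks 849, 824 and 1222), and its partner Icmt encodes a prenylcysteine methyltransferase. These 2 had the weakest rank in replicate 3.

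mRpL4 had rank 1376 (1734, 1646 and 1154 in the replicates) and mRpL53 rank 1442 (1558, 1447 and 949). mRpL17, one of the exit tunnel proteins, had rank 1464 (1765, 1163 and 1201), and its summit lay 346 bp upstream, only 53 bp from the start of Tudor-SN, a nuclease-domain protein gene. These last 3 kept ranks within 949 to 1765 in all replicates.

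After mRpS23, mRpS10 and mRpS2, the small subunit list continued with mRpS6, mRpS26, mRpS21, mRpS7 and mRpS31. mRpS6 had rank 1143 with a signal of 153 (replicate ranks 1757, 1567 and 1028), and its partner Cip4 encodes an F-BAR membrane protein. mRpS26 had rank 1580 (1615, 2273 and 1385), with the summit 165 bp upstream. mRpS21, paired with the DnaJ chaperone gene Droj2, had rank 1732 (3101, 1383 and 1062). None of the 3 left the strongest 3823 peaks in any replicate.

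mRpS7, a protein of the head of the small subunit, had rank 2185 (2355, 2244 and 4003) and lies opposite Cdk1, the mitotic kinase gene. mRpS31 had rank 2427, but its replicate ranks of 2043, 6928 and 2984 spanned the end of the optimal set. The remaining 12 members with a summit had ranks of 1654 to 3692 and signals of 124 to 74.4. Their partners include rept, an ATPase gene of chromatin remodelling complexes, qless, which acts in coenzyme Q synthesis, and Nop60B, a pseudouridine synthase gene.

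Over the 28 summits the median rank was 1658 (18 to 3692), against 1630 for all genes with a promoter summit. The best 955 ranks of the optimal set held 8 of the 28 (28.6%, against 31.5%) and the best 1911 ranks held 18 (64.3%, against 57.2%). The median signal was 123 in members and 124 in all such genes. In the median rank and the median signal the members were thus close to all such genes.

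Of the 28 summits, 18 (64.3%) recurred among the strongest peaks of all 3 replicates, 9 (32.1%) in 2 replicates and 1 (3.57%) in 1. Over all genes with a promoter summit the shares were 66.5%, 23.6% and 9.03%, and 0.847% had none. The 9 were mRpL10, mRpL11, mRpL21, mRpL51, mRpS7, mRpS11, mRpS16, mRpS24 and mRpS31, and the 1 was mRpL18. The widest spread was at mRpS11, a protein of the platform of the small subunit, with replicate ranks of 2675, 9833 and 3048. mRpL11, at the base of the stalk, had 6295, 1203 and 2726. mRpL51 had 6143, 1935 and 1597, mRpL21 had 1342, 4220 and 2284, and mRpS16 had 5413, 3239 and 1804.

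The last 2 members inside the optimal set had signals close to those of the first members outside it. They were mRpL18 (rank 3686, signal 74.5) and mRpS24 (rank 3692, signal 74.4), and the member before them was mRpS11 (rank 2933, signal 86.5). The next 3 outside were mRpL44 (pooled rank 3848, signal 72.3), mRpL54 (rank 3976, signal 70.9) and mRpL13 (rank 3979, signal 70.8). In replicates 1, 2 and 3 mRpL44 had ranks of 3035, 2725 and 13149, mRpL54 had 5438, 4399 and 4767, and mRpL13 had 6437, 3850 and 3939. Of the 45 members outside the optimal set, 4 were among the strongest peaks of 2 replicates (mRpL44, mRpL35, mRpL19 and mRpL52) and 7 among those of 1 (mRpL27, mRpL42, mRpL43, mRpL48, mRpL50, mRpS18B and mRpS22). The other 34 were in none. These are 8.89%, 15.6% and 75.6% of the 45, against 1.18%, 6.86% and 91.9% of all protein-coding genes without an optimal promoter summit.

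Weak promoter summits were common at the rest of the family. The pooled list holds 30000 peaks, including background. In it, 24 members (32.9%) had their best promoter summit between the end of the optimal set and rank 10000, against 15.8% of all genes. A further 12 (16.4%, against 18%) had it beyond rank 10000. No promoter summit was found at 9 members (12.3%), against 46.7% of all genes. These were mRpL30, mRpL33, mRpL40, mRpL46, mRpS5, mRpS14, mRpS28, mRpS34 and mRpS35. Of them mRpL46 and mRpS28 had none in any replicate list either.

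At 6 members a summit counted only through the gene body or the 2 kb upstream, and at each of them another gene's start was nearest. mRpL46 had the strongest, at rank 447 with a signal of 242, but it lay 1890 bp upstream of the gene and 84 bp from the start of PolD2, a DNA polymerase delta subunit gene. The summit of mRpL55 (rank 1737) lay 370 bp from CG6040, and that of mRpS9 (rank 3137) lay 167 bp from wtrw, inside introns of both genes. mRpL33 (rank 2549), mRpL22 (rank 3539) and mRpL2 (rank 3721) were counted for summits in introns of the neighbours norpA, if and FoxK, which encode a phospholipase C, an integrin and a forkhead factor. Without the upstream stretch 3 members had a summit in the gene body, where 34 had one with it. That count was not made over all protein-coding genes, so whether it is low cannot be told.

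No member on the X chromosome had a promoter summit in the optimal set. The X carries 11 members, 8 of the large and 3 of the small subunit, and 0 of 11 had one, against 387 of 2196 protein-coding genes on the X (17.6%). On the autosomes 28 of 62 members (45.2%) had one, against 2327 of 11749 genes (19.8%). The strongest 3823 peaks of each replicate also gave 0 of 11 on the X. Of the 11, 9 have a divergent partner, and over all divergent genes on the X 224 of 794 (28.2%) had a promoter summit. Divergent members on the autosomes had one in 27 of 49 cases (55.1%), against 1597 of 4347 (36.7%) of all divergent autosomal genes.

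The best pooled rank of an X-linked member was 5712, at mRpL22, and the best in any replicate was 4563. The other X-linked members ran to pooled rank 20268, with 3 without any promoter summit in that list. Other families did have summits on the X: cytosolic ribosomal protein genes in 12 of 14 cases (85.7%) and respiratory chain and ATP synthase genes in 5 of 12 (41.7%). With 11 genes the count is small.

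Against the 2 families closest in function, the members stood between. Promoter summits were found at 38.4% of members, 64.1% of cytosolic ribosomal protein genes (59 of 92) and 26.2% of respiratory chain and ATP synthase genes (22 of 84). The cytosolic ribosomal summits lay closer to the start, with a median of -44 bp and 79.7% within 100 bp, against -136 bp and 39.3% in members. The median rank was 1658 in members, 1135 in cytosolic ribosomal and 1822 in respiratory chain and ATP synthase genes, and 28.6%, 44.1% and 18.2% of the summits were in the best 955 ranks. At rank 100 or better there were 4 of 28 summits in members, 0 of 59 in cytosolic ribosomal and 0 of 22 in respiratory genes. The share over all genes with a promoter summit was 3.94%, and the best cytosolic ribosomal rank was 102. At rank 300 or better the counts were 6 of 28 (21.4%), 5 of 59 (8.47%) and 1 of 22 (4.55%), against 10.7%. Both limits were chosen after the ranks were seen. The difference between these families was not tested.

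Other nuclear genes for mitochondrial proteins were described from a list of 51 matched genes, for translation, RNA, DNA replication and protein import. Of them 8 (15.7%) had a promoter summit, against 19.5% of all protein-coding genes. The translation factors had 0 of 9 and the mitochondrial aminoacyl-tRNA synthetases 1 of 15 (ArgRS-m, rank 2935). Genes for mitochondrial transcription and RNA had 4 of 15 (26.7%), the strongest at PNPase, a polynucleotide phosphorylase gene, with rank 14, a signal of 834 and a summit 83 bp upstream, then SLIRP2, an RNA-binding protein gene, with rank 37 and a signal of 669, and SLIRP1 with rank 659. DNA replication had 1 of 4, mtSSB, the single-stranded DNA-binding protein gene, at rank 1192. Import had 2 of 8, the chaperone gene Hsc70-5 at rank 953 and the translocase gene ttm50 at rank 2078. tko and bonsai, 2 genes for small subunit proteins with other symbols, had no optimal promoter summit; the best pooled rank of tko was 4859 and bonsai had none.

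Letters of known promoter motifs were sought on both strands from 250 bases before to 50 bases after the start, and the E-box CAGCTG was more frequent in the family's promoters than in all promoters. It is the type of E-box that many basic helix-loop-helix factors bind. It was present in 40 of 73 member promoters (54.8%), against 17.7% of all protein-coding promoters, 22% of those with a divergent partner and 9.78% of cytosolic ribosomal promoters. The large subunit had it in 27 of 47 promoters (57.4%) and the small subunit in 13 of 26 (50%). It was found with and without a peak: in 16 of 28 members with a promoter summit (57.1%) and in 24 of 45 without (53.3%), against 23.5% and 16.3% over all protein-coding genes. Among divergent genes the shares were 59.3% of members with a summit and 48.4% of members without, against 25.3% and 20.2% of all divergent genes.

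Most E-box sites lay at the start of these genes. Of its 45 sites in member promoters 35 (77.8%) had their centre within 40 bp of the start, against 43.9% of 2776 sites in all protein-coding promoters. The 20 sites at members with a summit were a median of 114 bp from it (12 to 361 bp). In the 101 bases centred on the summit, 2 of 28 member summits held the letters (7.14%), against 6.36% of 1871 promoter summits of all genes. Sites are printed with 10 bases on either side, along the member's strand. They are examples from 4 members with a promoter summit and 3 without one in the optimal or the pooled list, to show the same letters at both. All the printed sites lie within 40 bp of the start and are followed by the bases tt. Other bases follow at other members, such as mRpL45 and mRpS9, so the flank is not a constant part. Capitals mark the E-box.
mRpL23, chr3L:2373727-2373732: ggttgacaatCAGCTGtttaaaacaa
mRpS2, site at the start, chr2L:4850425-4850430: cactacccacCAGCTGtttaccaaaa
mRpL17, chr3L:264792-264797: aaatggtcgcCAGCTGttcggcgaat
mRpS21, chr3R:13381802-13381807: tgatattcatCAGCTGtttagcagta
mRpL33, without a summit, chrX:4322219-4322224: taggcgcagtCAGCTGttcttcgttc
mRpL40, without a summit, chr3R:11407941-11407946: gcaacaaaaaCAGCTGttcgtacatt
mRpS34, without a summit, chr3L:16348076-16348081: ccagccggcaCAGCTGttcgaccttc

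The centre of the printed E-box was 97 bp from the summit at mRpL23, 180 bp at mRpS2, 361 bp at mRpL17 and 77 bp at mRpS21. A further E-box in the mRpS2 promoter, not printed, was 53 bp from the summit. The end of the stretch between mRpS2 and Mon1 printed above holds the printed mRpS2 site. Binding of an E-box factor was not measured.

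The DNA replication-related element, DRE, was also more frequent in the family's promoters than in all promoters, but not in divergent members with a summit. The letters TATCGATA, which the factor DREF binds, were present in 15 of 73 member promoters (20.5%), against 9.36% of all protein-coding promoters and 15.6% of those with a divergent partner. Cytosolic ribosomal promoters held these letters more often than members did, in 28 of 92 cases (30.4%). Members with a promoter summit had them in 6 of 28 cases (21.4%) and members without in 9 of 45 (20%). Over all protein-coding genes the shares were 15.3% with a summit and 7.93% without. Among divergent genes with a summit the shares were 18.5% of members and 18.2% of all genes, and without a summit 22.6% and 14.2%. Large subunit genes had DRE letters in 11 of 47 promoters (23.4%) and small subunit genes in 4 of 26 (15.4%).

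Most of these letters lay at the start and away from the summit. Of the 16 sites in member promoters 14 had their centre within 40 bp of the start, against 704 of 1449 (48.6%) over all promoters. The 7 sites at members with a summit were a median of 173 bp from it (34 to 373 bp). They are printed with 10 bases on either side, along the member's strand, to show where the letters recur. All but the upstream site of mRpS23 lie within 40 bp of the start. Capitals mark the DRE letters.
mRpL10, chr2L:203771-203778: aatatctggcTATCGATAagaatgaata
mRpS23, upstream site, chr2L:13835274-13835281: tttggactggTATCGATAgtaacataat
mRpS23, site at the start, chr2L:13835074-13835081: actctgatggTATCGATAggcaccggct
mRpL4, chr2L:16329106-16329113: taatctagccTATCGATAgaccttaccg
mRpL17, chr3L:264775-264782: agagtatcgcTATCGATAaatggtcgcc
mRpL20, chr3L:13017870-13017877: atcgatatttTATCGATAacatgctcat
mRpL32, chr3R:31252845-31252852: tctataaacaTATCGATAgcacagctgt
The same letters stood at members without a summit, for example at mRpL19 and at X-linked mRpL3.
mRpL19, chr3R:8674084-8674091: tataaagggtTATCGATAactctgctgt
mRpL3, chrX:15761245-15761252: atatcgctgaTATCGATActgtggccga

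The distance from site to summit was 34 bp at mRpL10, 93 bp at mRpL32 and 133 bp at mRpL4. It was 173 and 373 bp for the sites of mRpS23, 256 bp at mRpL20 and 345 bp at mRpL17. In the 101 bases centred on the summit, 1 of 28 member summits held the letters (3.57%), against 65 of 1871 promoter summits of all protein-coding genes (3.47%). The summit windows of the family were thus no richer in them than other promoter summits.

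The shorter letters CGATA, which every DRE contains, were in 46.4% of member promoters with a summit and 66.7% of those without. Over all genes the order was the reverse, 56.4% with a summit and 45.2% without. The core of promoter motif 1, GGTCACACT, was in 8 of 73 member promoters (11%), against 6.05% of all. This was close to its share in all promoters with a divergent partner (10.2%) and in cytosolic ribosomal promoters (9.78%). The paired-domain core GTCACGC was in 1 of 73 (1.37%), against 1.51%, and the NRF-1 type palindrome GCGCATGCG in 0 of 73, against 0.502%. Another E-box, CACGTG, was in 5 of 73 (6.85%), against 4.2%, and TATAAA in 46.6%, against 45.8%. A match of letters is a description of the sequence and not a binding site.

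**Figure D4:**
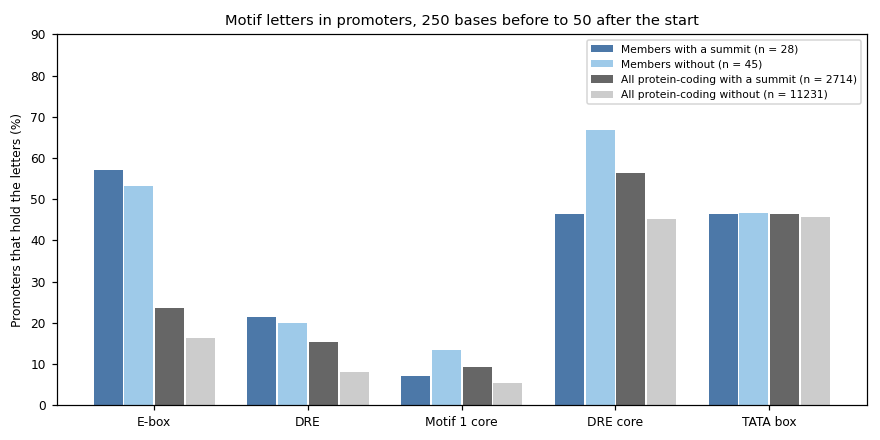
Bars give the percentage of promoters, 250 bases before to 50 after the start, that hold the letters of the E-box described above (the first group of bars), of DRE, of the motif 1 core, of the DRE core (the shorter letters) or of the TATA box on either strand. Members with (n = 28) and without (n = 45) a promoter summit had the E-box at 57.1% and 53.3%, and all protein-coding genes with and without one at 23.5% and 16.3%.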

How the data were processed

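The members, the other gene lists and the motifs were chosen with earlier results of these data known. Per the deposited file manifests, the authors called peaks in each of 3 replicates and in the pooled reads against a shared control, and made the optimal set by IDR. Aligner, peak caller and IDR threshold were not given in the sources used here. The depth of sequencing is unknown, and the control was not analysed here. The authors' deposited signal has an unknown scaling, so it only ranked peaks within a list. The deposited summit offset, per the file format counted from the peak start, gave the summit. The 3823 optimal peaks were identical to the strongest pooled peaks. The lists on the second genome build (dm3) were not used.

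Starts came from Ensembl release 115 (BDGP6.54), and sequence from the NCBI Release 6 assembly, both on dm6 coordinates, which are counted from 1. Arms X, 2L, 2R, 3L, 3R and 4 were used. Counting used Python 3.11.15, pandas 2.3.3 and numpy 2.4.6, and the counting was tested on simulated data. Replicate lists were cut at their 3823 strongest peaks, since relaxed lists of 30000 hold background. Families were taken by symbol. In the list of other mitochondrial genes, mEFG2 had no match. Genes are not replicates, so no p-value was computed. Members were named by rule: the 8 best-ranked of each subunit, 3 on either side of the end of the optimal set, those counted only by the body rule, those missing from a replicate's strongest peaks, and those without a pooled summit.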

Additional observations from a re-analysis of the deposited data

How the results depend on the processing

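The settings changed were the summit distance, the starts used, the partner rule, the upstream stretch, the number of peaks and the replicates, and 11 of 48 values moved beyond the limit used (1.5 times for a count, 1 SD of the replicates for a share, difference or distance) or reversed. The large minus small difference of -12.1 points reversed to 2.45 in the stronger 1911 optimal peaks, and was -9.08 to -5.24 when 1 replicate was left out and -18 with the own start nearest. With those 1911 peaks, 18 of the 28 promoter counts and 20 of the 34 body counts remained, because fewer peaks were counted. Requiring the member's own start to be nearest gave 14 of 73 members and a divergent minus single difference of 15.7 points, where 39.9 is reported. Over all protein-coding genes, 1909 of 13945 had their own start nearest to their best-ranked promoter summit. That rule kept 50% of the 28 members and 70.3% of the 2714 genes with a promoter summit, so the member count fell further. Leaving out replicates gave 26.1 to 37.9 points for that difference (26.1 without replicate 3), 20 to 22 members by the promoter rule and 24 to 26 by the body rule; the peak sets were smaller there. Without the upstream stretch the body rule gave 3, a count not made over all protein-coding genes. The mean replicate share of 40.2% became 21.9% with 1911 peaks per replicate, 85.4% with whole lists, 34.2% within 250 bp and 42.5% within 1000 bp, as fewer or more summits qualify, and 39.7% to 40.4% without 1 replicate. The median offset stayed between -144 and -136 bp, and 53 to 58 members had a partner. No paired analysis was possible because there is 1 group. Read depth is unknown, so no counting interval is given, and a gene without a summit is one not detected at this depth.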
